A study of Sus scrofa with 32 samples.

Results

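The 10 genes described here encode mucins and enzymes of mucin-type glycosylation: the mucins MUC1, MUC4, MUC6, MUC16 and MUC20, and the enzymes GALNT15, GALNT3, GCNT3, B4GALT6 and ST6GAL1. They are 10 of the 30185 genes counted, and 9 were found by their pig gene symbol. MUC16 has no gene of that symbol in the annotation and was taken as the gene whose product is named mucin-16 (LOC100624460), so values under its name are those of that gene model. The endometrium came from 4 pregnant and 4 cyclic gilts on Day 14, all prepuberal animals synchronised by eCG and then hCG. The pregnant gilts had received German Landrace semen, and the cyclic gilts, which the labels call nonpregnant controls, with the supernatant of semen of the same boar. LE, GE, BV and S were collected by laser capture microdissection, the cutting of stained cell areas out of frozen sections, with 1 library per gilt and compartment. Pregnant tissue was taken at the sites where a conceptus attached once the conceptus had been taken off. Each group had n = 4 except pregnant GE, with n = 3, as the GE capture of gilt P41 is not analysed here.

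Mucins are proteins densely covered with O-linked glycans. Membrane mucins such as MUC1, MUC4 and MUC16 form the glycocalyx on the apical surface of uterine epithelium, the surface to which the pig conceptus attaches, and gel-forming mucins such as MUC6 are secreted by glands. GALNT enzymes start an O-glycan by adding GalNAc to serine or threonine, GCNT3 branches it, and galactosyl- and sialyltransferases extend and cap glycans. B4GALT6 and ST6GAL1 are known mainly for the glycolipid lactosylceramide and for N-glycans, and are listed with the mucin enzymes only by the rule that chose them.

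The 31 libraries held 2415216 to 7081556 counts on genes, with a median of 3624021. Expression is given as CPM, counts scaled to library size with TMM factors of all libraries, and values per library are listed in the order of cyclic gilts C128, C40, C42 and C78 and of pregnant gilts P139, P39, P41 and P43 (GE without P41). A gene is detectable where the authors' filtered table of a compartment holds it. The captures were checked with 10 epithelial markers, among them EPCAM and CDH1, whose summed level was 3015 to 3485 CPM in cyclic LE and 2416 to 2744 CPM in pregnant LE. In GE it was 1678 to 1972 CPM and 1612 to 1847 CPM. In BV the same sum was 2.84 to 50.4 CPM for the cyclic and 174 to 312 CPM in pregnant libraries, and in S 11.7 to 184 CPM and 34.9 to 483 CPM. All 10 markers had counts in every group, and the BV groups did not overlap. Of 12 trophoblast markers 1 was detectable in LE, and their sum was 80.0 to 806 CPM for the cyclic and 282 to 549 CPM in pregnant LE. The groups overlapped, so the sum does not separate gilts with a conceptus from those without. CYP17A1, CYP19A1, IL1B2 and CDX2 had no count in either LE group, and PAG6 and HAND1 had none in cyclic LE only. Carry-over of conceptus RNA was not tested. The sum over 8 smooth muscle markers was 6219 to 18584 CPM in cyclic BV and 1208 to 7220.0 CPM in pregnant BV. That over 8 fibroblast markers was 4106 to 14387 CPM in cyclic and 10512 to 17175 CPM in pregnant LE. In GE it was 2885 to 7539 CPM and 3632 to 6573 CPM, and in S 36696 to 106424 CPM and 40941 to 94468 CPM. The LE and GE captures thus had higher fibroblast than epithelial marker sums, and their share of stromal RNA was not tested. Fewer cells of a type and less RNA per cell cannot be told apart in such captures.

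Of the 10 genes, 6 were detectable in LE, while GE held 9, BV 3 and S 4, and MUC20 in none. For each compartment, edgeR's quasi-likelihood test set the pregnant against the cyclic libraries over its detectable genes. LE genes were called when their Benjamini-Hochberg adjusted p was at most 1%, and the highest unadjusted p among them (3.28e-04) was the limit for GE, BV and S. Calls outside LE thus rest on the unadjusted p, and the adjusted p is given beside them as a description. GALNT15 was upregulated in LE and GE and MUC1 in LE. The authors' filter removes low values, so a gene that is low in cyclic libraries could pass it only through the pregnant ones, and the counts of genes below describe those that passed. The 10 genes were also chosen with earlier results of these data known. Their shares beside those of all genes are thus a description and not a test.

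**Figure D1:**
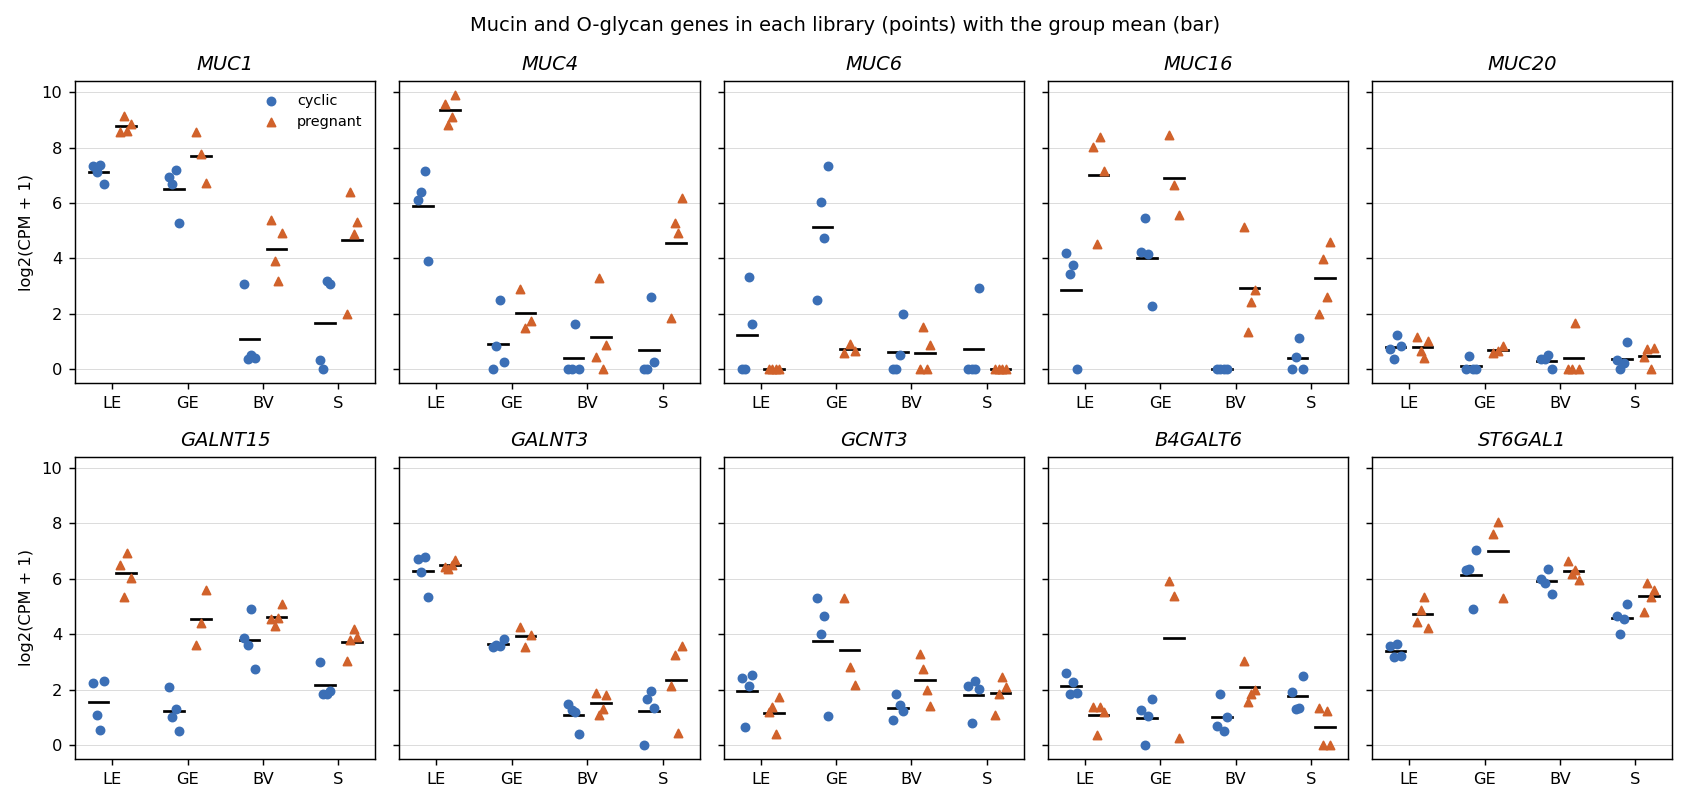
Level of each gene in every library, as log2(CPM + 1) on the y axis, by compartment on the x axis, with cyclic libraries as circles, pregnant libraries as triangles and the group mean of the plotted values as a bar. MUC1, MUC4, MUC16, GALNT15 and ST6GAL1 have all pregnant LE libraries above all cyclic ones, and MUC6 has all pregnant GE libraries below all cyclic ones.

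The upstream sequences of MUC1 and GALNT15 are shown because these are the genes of the set called in LE. Each run is the 250 bases before the annotated start of the gene in Sscrofa11.1 as given by RefSeq, 5′ to 3′, with capitals where the letters match the NF-kB motif, searched as 3 G, any 5 letters and 2 C. MUC1 is preceded by chr4:94626067-94626316 and GALNT15 by chr13:3329574-3329823, both on the plus strand.
MUC1: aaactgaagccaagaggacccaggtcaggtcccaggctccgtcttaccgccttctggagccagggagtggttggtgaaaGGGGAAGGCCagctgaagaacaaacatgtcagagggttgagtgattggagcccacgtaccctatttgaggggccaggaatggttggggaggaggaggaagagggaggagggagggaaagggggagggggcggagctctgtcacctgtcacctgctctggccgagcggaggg
GALNT15: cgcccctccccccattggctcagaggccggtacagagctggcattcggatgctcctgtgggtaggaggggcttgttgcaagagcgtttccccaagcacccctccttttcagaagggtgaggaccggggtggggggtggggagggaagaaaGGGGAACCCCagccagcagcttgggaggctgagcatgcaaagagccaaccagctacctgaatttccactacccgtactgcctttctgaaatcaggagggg
The match lay at positions -171 to -162 from the start in MUC1 and -100 to -91 in GALNT15. On both strands, 6 of the 10 genes held such letters in this window, beside 57.1% of the 25851 genes whose window was read. Of the other 3 genes whose groups did not overlap in pregnant and cyclic LE with higher pregnant levels, MUC4 and ST6GAL1 held them and MUC16 did not. None of the 10 held TTCNNNGAA (STAT), ACANNNTGT (progesterone or glucocorticoid receptor), TGANTCA (AP-1) or the palindromic motif of the oestrogen receptor, which occurred in 6.04%, 4.08%, 5.80% and 0.0155% of the windows. A match is a run of letters only, and no binding was measured.

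In LE, the membrane mucins MUC1, MUC4 and MUC16 and the enzymes GALNT15 and ST6GAL1 stood higher in pregnant gilts. MUC1 and GALNT15 were called, 2 of the 6 detectable genes of the set, beside 3.32% of all 12002 genes tested in LE. The robust GLM and DESeq2 each called 5 of the 6, all but GALNT3, beside 11.8% and 11.2% of all genes. For 5 of the 6, MUC1, MUC4, MUC16, GALNT15 and ST6GAL1, the lowest pregnant library lay above the highest cyclic one, beside 10.3% of all genes. The median log2 FC of the 6 was 2.403, and that of all genes -0.0073, a description only, as the genes were chosen with earlier results known.

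MUC1, a membrane mucin of most secretory epithelia (gene ID 397382, chr4:94626317-94631194 on the plus strand), stood at 102, 159, 139.5 and 164 CPM for cyclic LE, against 462, 381, 556 and 383 CPM for pregnant LE. Cyclic gilt C128 was the lowest and pregnant gilt P41 the highest, and the groups did not overlap. The cyclic mean was 141 ± 28.2 CPM (SD, n = 4) and the pregnant one 445 ± 83.1 CPM (SD, n = 4), and MUC1 was called (log2 FC 1.67, standard error 0.22, adjusted p = 0.00289, by the Benjamini-Hochberg method on edgeR's quasi-likelihood test). The call was lost without cyclic gilt C40 (adjusted p = 0.0120) or C42 (adjusted p = 0.0131) in the same test, with log2 FC of 1.72 and 1.65. Per 1000 CPM of the summed epithelial markers, which were themselves lower in pregnant LE, MUC1 was 29.5 to 52.7 CPM among cyclic and 142 to 203 CPM among pregnant libraries.

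GALNT15, a GalNAc-transferase that starts O-glycans (gene ID 100157572, chr13:3329824-3371094 on the plus strand), stood at 4.01, 3.71, 1.14 and 0.455 CPM for cyclic LE, against 64.0, 89.4, 39.99 and 120.0 CPM for pregnant LE. Every cyclic library was low, with 2 to 17 counts, and every pregnant one was above the highest cyclic one by a wide margin. The cyclic mean was 2.33 ± 1.80 CPM (SD, n = 4) and the pregnant one 78.4 ± 34.3 CPM (SD, n = 4), the largest log2 FC among the LE genes of the set (log2 FC 5.07, standard error 0.58, adjusted p = 0.00162, quasi-likelihood test), and the call held without any 1 library (log2 FC 4.72 to 5.41). GALNT3, the other initiating enzyme of the set (gene ID 100515629, chr15:72276502-72343524 on the minus strand), stood at 39.6, 104, 74.5 and 110.3 CPM for cyclic LE, against 101, 85.3, 80.5 and 88.7 CPM for pregnant LE. Its groups overlapped, with cyclic gilt C128 the lowest, and it was not called (log2 FC 0.12, standard error 0.30, adjusted p = 0.837, quasi-likelihood test).

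MUC4, a membrane mucin that binds the receptor ERBB2 (gene ID 100157344, chr13:134192412-134248435 on the plus strand), stood at 13.9, 68.2, 83.9 and 141 CPM for cyclic LE, against 955, 749, 449 and 550.3 CPM for pregnant LE. The 4 pregnant libraries lay above all cyclic ones, of which gilt C128 was far the lowest. Its mean was 76.7 ± 52.2 CPM (SD, n = 4) for the cyclic and 676 ± 224 CPM (SD, n = 4) for the pregnant libraries, without a call by the quasi-likelihood test (log2 FC 3.14, standard error 0.61, adjusted p = 0.0130). It was called by edgeR's robust GLM (adjusted p = 7.06e-09) and by DESeq2 (adjusted p = 7.17e-07), and by the quasi-likelihood test without cyclic gilt C128 (adjusted p = 0.00450) or C78 (adjusted p = 0.00796).

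MUC16, the very large membrane mucin that carries the CA125 antigen (gene ID 100624460, chr2:66901635-67017040 on the minus strand), stood at 0, 17.3, 9.99 and 12.5 CPM for cyclic LE, against 141, 256, 22.0 and 330.4 CPM for pregnant LE. Cyclic gilt C128 had no count, and pregnant gilt P41, at 22.0 CPM, was the lowest pregnant library but still above cyclic gilt C40. It had a log2 FC of 4.22 (standard error 1.01, adjusted p = 0.0293) by the quasi-likelihood test, without a call, and was called by the robust GLM (adjusted p = 6.89e-06) and DESeq2 (adjusted p = 0.00692). A neighbouring gene model named mucin-16-like (LOC102167930) lies next to it, so reads of 1 mucin may be split over both. That model had a mean of 1.82 ± 1.24 CPM for cyclic against 42.1 ± 25.5 CPM for pregnant LE (log2 FC 4.48, standard error 0.83, adjusted p = 0.0109, quasi-likelihood test).

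ST6GAL1, which caps galactose with sialic acid (gene ID 100302026, chr13:124699622-124837847 on the plus strand), stood at 8.30, 10.9, 7.99 and 11.4 CPM for cyclic LE, against 17.7, 20.7, 28.4 and 39.7 CPM for pregnant LE. The groups did not overlap, and pregnant gilt P43 was the highest. The log2 FC of 1.46 (standard error 0.29, adjusted p = 0.0133) of the quasi-likelihood test was not called, and both the robust GLM (adjusted p = 1.41e-04) and DESeq2 (adjusted p = 1.69e-04) called it. An antisense gene (LOC100519216) overlaps exons of ST6GAL1, and since the strand setting of the counting was not given, reads of both cannot be told apart. For the quasi-likelihood test, the adjusted p of ST6GAL1 stayed between 0.0154 and 0.0436 when 1 library was left out.

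The other 4 genes were not detectable in LE. MUC6 had 48 counts in cyclic LE, 40 of them in gilt C78, while pregnant LE had none, a level lower by at least 16.9-fold with the pregnant group set to its floor of 3 counts. B4GALT6 stood at 2.68, 5.02, 2.57 and 3.87 CPM for cyclic LE, against 1.29, 1.59, 0.286 and 1.60 CPM for pregnant LE, without overlap and lower in pregnant gilts, as for 9.12% of the tested genes. GCNT3 lay between 0.320 and 4.82 CPM and MUC20 between 0.285 and 1.37 CPM, with overlapping groups.

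**Figure D2:**
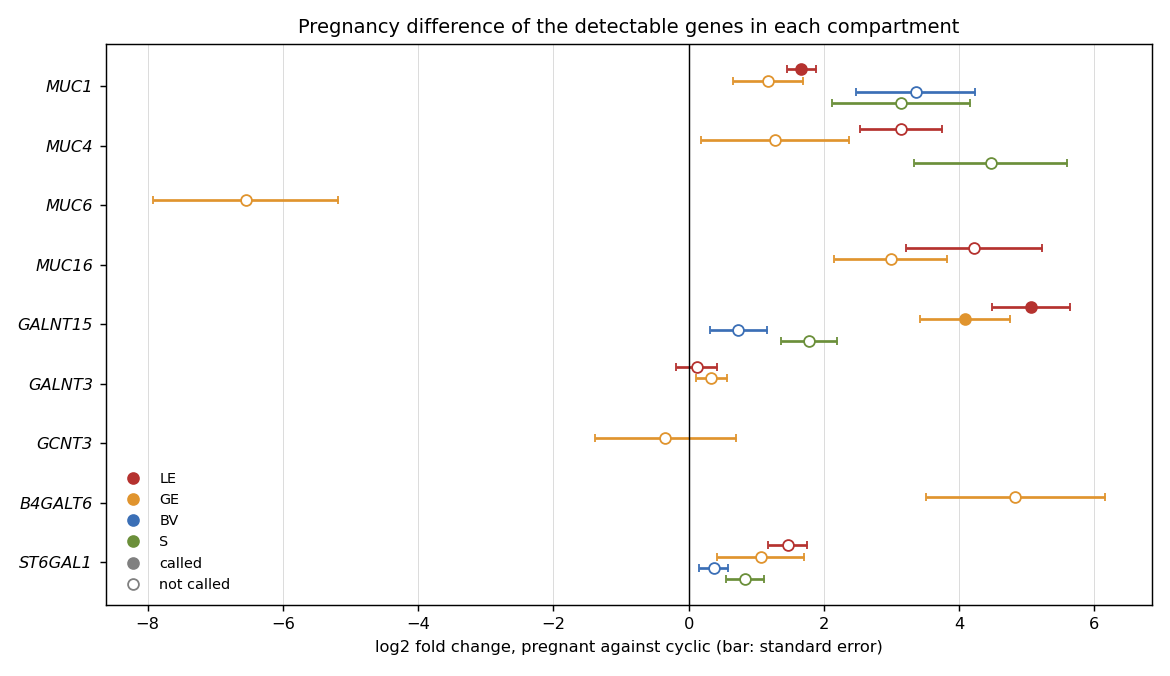
Log2 FC of pregnant against cyclic libraries (x axis) with its standard error for each gene (y axis) in the compartments where it was detectable, from the quasi-likelihood fits. Filled points, the called ones, are MUC1 in LE at 1.67 and GALNT15 at 5.07 in LE and 4.08 in GE.

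In GE, GALNT15 was the 1 called gene of the 9 detectable ones, beside 0.748% of the 11905 genes tested. The robust GLM called 4, adding MUC6, MUC16 and B4GALT6, beside 6.66% of all genes, and DESeq2 called 3 of these, all but B4GALT6, beside 6.64%. Groups did not overlap for 3 of the 9, GALNT15 and MUC16 higher and MUC6 lower in pregnant gilts, beside 11.6% and 11.3% of all genes in these directions. Summed leukocyte markers also stood apart in GE, at 27.7 to 36.0 CPM for the cyclic and 79.1 to 117 CPM in pregnant libraries, and their part in these differences was not tested.

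GALNT15 stood at 0.432, 3.23, 1.01 and 1.48 CPM for cyclic GE, against 47.2, 11.3 and 20.3 CPM for pregnant GE. All 3 pregnant libraries lay above the cyclic ones, with gilt P139 the highest. It was called (log2 FC 4.08, standard error 0.67, adjusted p = 0.0420, quasi-likelihood test with Benjamini-Hochberg adjustment), and the call was lost without cyclic gilt C128, C42 or C78 or pregnant gilt P139 or P43 (adjusted p from 0.0391 to 0.124, log2 FC never below 3.35). The robust GLM (adjusted p = 3.45e-10) and DESeq2 (adjusted p = 6.24e-07) also called it.

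MUC6, a gel-forming mucin of gastric and other glands (gene ID 100626121, chr2:630075-657967 on the minus strand), stood at 162, 4.61, 64.8 and 25.6 CPM for cyclic GE, against 0.590, 0.524 and 0.896 CPM for pregnant GE. Cyclic libraries ranged widely, from gilt C40 to gilt C128, and each was above all pregnant libraries, which had 2 or 3 counts each. Its log2 FC of -6.55 (standard error 1.37, adjusted p = 0.0558) by the quasi-likelihood test was not called, while the robust GLM (adjusted p = 1.02e-10) and DESeq2 (adjusted p = 2.23e-08) called it, as did the quasi-likelihood test without cyclic gilt C40 (adjusted p = 0.0462).

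MUC16 stood at 3.89, 17.7, 42.6 and 17.0 CPM for cyclic GE, against 46.4, 348 and 99.2 CPM for pregnant GE. Pregnant gilt P39 was by far the highest and pregnant gilt P139 just above cyclic gilt C42. It was not called by the quasi-likelihood test (log2 FC 2.99, standard error 0.84, adjusted p = 0.0967) and was called by the robust GLM (adjusted p = 3.63e-04) and DESeq2 (adjusted p = 0.00342). The neighbouring mucin-16-like model had a mean of 3.47 ± 2.51 CPM for cyclic against 24.9 ± 28.0 CPM for pregnant GE (log2 FC 2.80, standard error 0.84, adjusted p = 0.107, quasi-likelihood test).

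B4GALT6, a galactosyltransferase known for lactosylceramide synthesis (gene ID 100517222, chr6:115525515-115593265 on the minus strand), stood at 2.16, 1.38, 0 and 1.06 CPM for cyclic GE, against 0.197, 60.005 and 40.3 CPM for pregnant GE. Pregnant gilts P39 and P43 were far above every cyclic library, and pregnant gilt P139, with 1 count, was among the lowest. The log2 FC of 4.83 (standard error 1.32, adjusted p = 0.0927) was not called by the quasi-likelihood test or by DESeq2 (adjusted p = 0.0384), was called by the robust GLM (adjusted p = 1.13e-04), and without pregnant gilt P139 was called by the quasi-likelihood test (adjusted p = 0.0591).

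MUC1 stood at 37.8, 121, 102 and 145 CPM for cyclic GE, against 105, 378 and 216 CPM for pregnant GE, and pregnant gilt P139 lay within the cyclic range (log2 FC 1.18, standard error 0.52, adjusted p = 0.222, quasi-likelihood test). ST6GAL1 stood at 129.9, 79.5, 79.8 and 28.8 CPM for cyclic GE, against 38.2, 196 and 266 CPM for pregnant GE, again with pregnant gilt P139 within the cyclic range (log2 FC 1.07, standard error 0.64, adjusted p = 0.359). GCNT3, a branching enzyme of mucin O-glycans (gene ID 100522112, chr1:112424212-112540984 on the minus strand), stood at 1.08, 38.96, 15.1 and 24.2 CPM for cyclic GE, against 3.54, 38.3 and 5.97 CPM for pregnant GE. In both groups GCNT3 spread widely, from cyclic gilt C128 to cyclic gilt C40 and from pregnant gilt P139 to pregnant gilt P39 (log2 FC -0.34, standard error 1.05, adjusted p = 0.878). GALNT3 kept within 10.6 to 18.3 CPM in all 7 libraries (log2 FC 0.33, standard error 0.23, adjusted p = 0.419). MUC4 was low in GE, with 0 to 6.55 CPM and overlapping groups (log2 FC 1.27, standard error 1.09, adjusted p = 0.522). None of these 5 genes was called in GE by the quasi-likelihood test, the robust GLM or DESeq2. MUC20, a small membrane mucin (gene ID 100134954, chr13:134254978-134265950 on the minus strand), had 2 counts in cyclic and 8 in pregnant GE, a ratio of 6.09 with an exact 95% interval of 1.21 to 58.8 that covers counting error only.

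In BV, 3 genes of the set were detectable, MUC1, GALNT15 and ST6GAL1. The quasi-likelihood test called 0 of them, beside 1.86% of 11096 genes, 1 had an unadjusted p under 0.05, beside 28.5%, and the robust GLM and DESeq2 each called 1, MUC1, beside 11.0% and 8.50%. MUC1 stood at 0.336, 7.49, 0.284 and 0.425 CPM for cyclic BV, against 29.6, 40.5, 14.2 and 8.16 CPM for pregnant BV. Cyclic gilt C40 stood apart from the other cyclic libraries, which had 1 count each, and was just below pregnant gilt P43, so that the groups did not overlap, as for 8.68% of all genes in this direction. The log2 FC of 3.36 (standard error 0.88, adjusted p = 0.0455) of the quasi-likelihood test was not called, and without cyclic gilt C40 it was 5.91 and called (adjusted p = 0.0243). MUC1 was also called by the robust GLM (adjusted p = 1.23e-11) and DESeq2 (adjusted p = 0.00331).

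The epithelial markers moved with MUC1 in BV, as given above. Per 1000 CPM of these markers, MUC1 was 10.9 to 149 CPM in cyclic and 43.5 to 207 CPM in pregnant BV, with overlapping groups, and the ratio of the means was 10.8 on the CPM scale and 1.56 on this one. Whether epithelial RNA accounts for MUC1 in BV was not tested. MUC16 was not detectable in BV, with no count in cyclic libraries and 6.34, 34.1, 1.53 and 4.45 CPM in pregnant ones. Pregnant BV held 121 MUC16 counts, 90 of them in gilt P39, at least 47.7-fold higher when the cyclic group is set to its floor of 3 counts. Cyclic BV with markers between 2.84 and 50.4 CPM had 0 MUC16 counts, and pregnant BV with the higher marker sums had all of them. Within pregnant BV, gilt P39 had 34.1 CPM of MUC16 at a marker sum of 196 CPM, and gilt P139 had 6.34 CPM at 312 CPM. The part of epithelial RNA in the MUC16 values of BV was not tested.

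GALNT15 stood at 5.72, 13.5, 11.07 and 28.9 CPM for cyclic BV, against 33.0, 22.4, 18.4 and 23.0 CPM for pregnant BV, and cyclic gilt C78 lay within the pregnant range. It was not called (log2 FC 0.74, standard error 0.42, adjusted p = 0.282, quasi-likelihood test), and cyclic BV was its highest cyclic compartment. ST6GAL1 stood at 43.03, 62.0, 57.1 and 79.9 CPM for cyclic BV, against 60.5, 98.9, 71.3 and 79.4 CPM for pregnant BV, with overlapping groups (log2 FC 0.37, standard error 0.21, adjusted p = 0.284, quasi-likelihood test). The other mucins and enzymes had few counts in BV. MUC4 had counts mainly in cyclic gilt C78 and pregnant gilt P41, MUC6 had 10 and 7 counts in the cyclic and pregnant groups, and MUC20 had 3 and 6, a ratio of 2.36 with a counting interval of 0.505 to 14.6. GALNT3, GCNT3 and B4GALT6 reached at most 2.65, 8.72 and 7.20 CPM in a BV library, with overlapping groups.

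**Figure D3:**
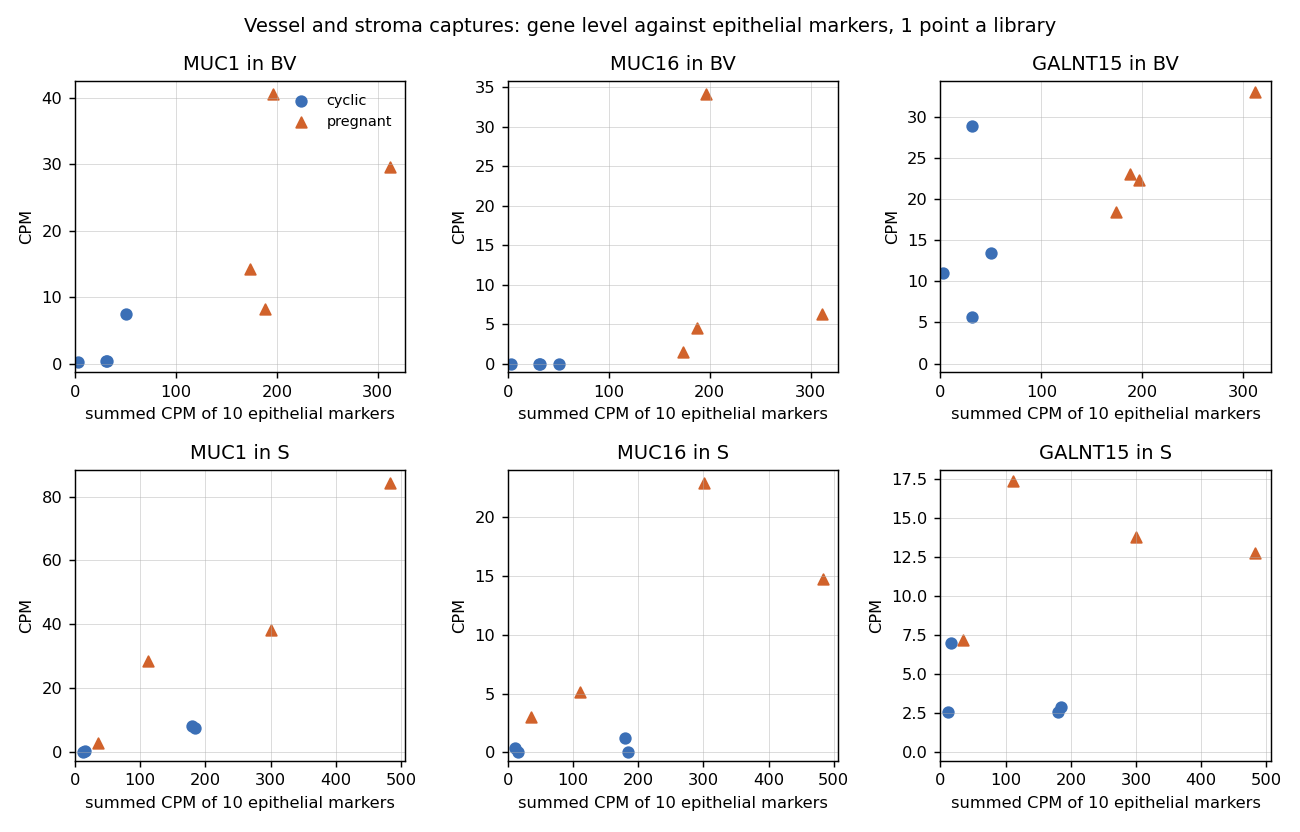
MUC1, MUC16 and GALNT15 in BV (top) and S (bottom), with CPM on the y axis against the summed CPM of 10 epithelial markers on the x axis, 1 point per library, cyclic as circles and pregnant as triangles. In BV the pregnant libraries have marker sums of 174 to 312 CPM and the cyclic ones of 2.84 to 50.4 CPM, and in S the 2 groups share part of the range.

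In S, 4 genes of the set were detectable, MUC1, MUC4, GALNT15 and ST6GAL1. The quasi-likelihood test called 0, beside 0.293% of 11935 genes. All 4 had an unadjusted p under 0.05 and stood higher in pregnant gilts, beside 7.49% of all genes. MUC1 and MUC4 had 88 and 31 counts in cyclic S against 513 and 517 in pregnant S. They may have passed the filter through the pregnant libraries, so these counts of genes are a description only. The robust GLM called 3, all but ST6GAL1, beside 3.16% of all genes, and DESeq2 called GALNT15 alone, beside 2.60%.

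GALNT15 stood at 2.90, 7.01, 2.55 and 2.57 CPM for cyclic S, against 13.8, 7.21, 12.8 and 17.4 CPM for pregnant S. Cyclic gilt C40 was far above the other cyclic libraries and just below pregnant gilt P39, and the groups did not overlap, as for 3.62% of all genes in this direction. Its log2 FC of 1.78 (standard error 0.41, adjusted p = 0.118) by the quasi-likelihood test was called without cyclic gilt C40 (log2 FC 2.25, adjusted p = 0.261), where the limit is an unadjusted p. DESeq2 (adjusted p = 0.00611) and the robust GLM (adjusted p = 3.30e-04) called it with all libraries.

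MUC1 stood at 7.54, 0.280, 0 and 8.22 CPM for cyclic S, against 38.4, 3.04, 84.2 and 28.6 CPM for pregnant S. Pregnant gilt P39 lay within the cyclic range (log2 FC 3.14, standard error 1.02, adjusted p = 0.224, quasi-likelihood test). MUC4 stood at 0.193, 0, 0 and 5.14 CPM for cyclic S, against 72.3, 2.66, 37.7 and 29.3 CPM for pregnant S. Here too pregnant gilt P39 lay below the highest cyclic library, gilt C78 (log2 FC 4.46, standard error 1.13, adjusted p = 0.151, quasi-likelihood test), and without cyclic gilt C78 MUC4 was called (adjusted p = 0.0715). ST6GAL1 stood at 33.3, 24.4, 14.9 and 22.3 CPM for cyclic S, against 47.0, 27.0, 56.0 and 39.5 CPM for pregnant S, with overlapping groups (log2 FC 0.84, standard error 0.28, adjusted p = 0.232). MUC16, not detectable in S, had 8 counts in cyclic and 166 in pregnant libraries (0, 0, 0.365 and 1.20 CPM and 22.9, 3.04, 14.7 and 5.11 CPM), without overlap. MUC6 had 34 counts in cyclic S, all of them in gilt C128, and none in pregnant S, at least 8.44-fold lower.

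In S the epithelial marker sums of the groups overlapped. They were 184, 15.7, 11.7 and 179.7 CPM in the cyclic gilts and 301, 34.9, 483 and 111 CPM in the pregnant ones. Cyclic gilts C128 and C78, which had the MUC1 and MUC6 or MUC4 counts of cyclic S, also had the higher cyclic marker sums. Pregnant gilt P39 had the lowest MUC1, MUC4 and MUC16 of pregnant S and the lowest pregnant marker sum. Per 1000 CPM of the markers, MUC1 was 0 to 45.7 CPM in cyclic and 87.0 to 257 CPM in pregnant S, which did not overlap. On the same scale MUC4 was also apart, at 0 to 28.6 CPM among cyclic and 76.1 to 263 CPM among pregnant libraries. MUC16 overlapped, at 0 to 31.2 CPM and 30.5 to 87.0 CPM. GALNT15 overlapped too, and its mean was then higher in cyclic S, at 174 CPM (range 14.3 to 446) against 109 CPM (range 26.5 to 207). That cyclic mean rests on gilts C40 and C42, at 446 and 219 CPM, whose marker sums were only 15.7 and 11.7 CPM. Cyclic gilts C128 and C78 had 15.7 and 14.3 CPM on this scale. With marker sums this low, the scaled means do not settle the direction of the GALNT15 difference in S. GALNT15 was not called as higher in epithelium in the joint fit below, which averages cyclic and pregnant gilts. In pregnant gilts alone its mean was 78.4 CPM in LE and 12.8 CPM in S. On the same scale MUC1 in LE was 29.5 to 52.7 CPM among cyclic and 142 to 203 CPM among pregnant libraries. MUC4 in LE was 4.04 to 40.4 CPM among cyclic and 164 to 383 CPM among pregnant libraries. As both also stood apart in LE, this scaling cannot separate a change in S from epithelial RNA in S. The part of epithelial RNA in the S values was not tested.

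Whether the pregnancy effect differed between compartments was tested by interaction terms in a joint quasi-likelihood fit of 13887 genes and 31 libraries, at a false discovery rate of 1% and only for genes with more than 3 counts in every group involved. Over all compartments, 2 of 7 such genes were called, GALNT15 (adjusted p = 0.00307) and B4GALT6 (adjusted p = 0.00750), beside 1.40% of all genes, whatever their counts. For GALNT15 the log2 FC ran from 5.07 (LE) and 4.08 (GE) to 1.78 (S) and 0.74 (BV). With the gilt as a block, which pairs the compartments of 1 animal, GALNT15 was still called (adjusted p = 0.00345, beside 1.94% of all genes) and B4GALT6 was not (adjusted p = 0.0128). The call of GALNT15 was lost without gilt P39, C42, P43 or C78 (adjusted p from 0.0169 to 0.0257).

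Between LE and GE, 1 of 8 genes, B4GALT6, differed in its pregnancy effect, beside 0.691% of all genes, whatever their counts. B4GALT6 was detectable only in GE, with 21 counts in cyclic and 365 in pregnant libraries, so its call is not independent of the filter. Its log2 FC was lower in LE than in GE by a difference of -6.50 (standard error 1.35, adjusted p = 0.00856), with lower values in pregnant LE and higher ones in pregnant GE of gilts P39 and P43. With the gilt as a block the difference was -5.55 (standard error 1.26, adjusted p = 0.0167), no longer called (beside 1.02% of all genes), and of the gilts left out in turn only gilt P139 left the call in place (adjusted p up to 0.0711 for the others). MUC1, MUC4, MUC16, GALNT15 and ST6GAL1 had larger estimates in LE than in GE without a call. The differences were 0.46 (standard error 1.01, adjusted p = 0.898) for MUC1 and 1.85 (standard error 1.52, adjusted p = 0.652) for MUC4 in the quasi-likelihood test. For MUC16 it was 1.20 (standard error 1.32, adjusted p = 0.761), for GALNT15 0.95 (standard error 0.88, adjusted p = 0.704) and for ST6GAL1 0.39 (standard error 0.61, adjusted p = 0.849).

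The genes also differed in where they were expressed. Averaged over cyclic and pregnant gilts, 4 of 8 genes differed in level between LE and GE, beside 40.1% of all genes, whatever their counts. MUC4 was higher in LE by 6.63 (standard error 0.82, adjusted p = 2.46e-07) on the log2 scale and GALNT3 by 2.72 (standard error 0.34, adjusted p = 3.45e-07). ST6GAL1 was higher in GE, with a difference of -2.84 (standard error 0.32, adjusted p = 5.45e-08), as was GCNT3, with -3.01 (standard error 0.57, adjusted p = 8.17e-05), all from the joint quasi-likelihood fit. MUC1 and MUC16 did not pass the test, with differences of 0.71 (standard error 0.51, adjusted p = 0.256) and -0.42 (standard error 0.65, adjusted p = 0.618), nor did GALNT15, with 1.09 (standard error 0.43, adjusted p = 0.0378), and B4GALT6, with -1.63 (standard error 0.68, adjusted p = 0.0474).

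The level of MUC4 over the libraries of a compartment was 376 ± 354 CPM (LE), 2.34 ± 2.44 CPM (GE), 1.52 ± 3.04 CPM (BV) and 18.4 ± 26.3 CPM (S) (SD, n = 8, GE n = 7). LE had the highest mean, but the lowest LE library, of cyclic gilt C128, lay below the highest S library, and the ranges of GE, BV and S overlapped. For MUC1 it was 293 ± 173 CPM (LE), 158 ± 111 CPM (GE), 12.6 ± 14.97 CPM (BV) and 21.3 ± 29.0 CPM (S), where the ranges of neighbouring compartments overlapped. GALNT3 had 85.5 ± 22.2 CPM (LE), 12.8 ± 2.86 CPM (GE), 1.58 ± 0.754 CPM (BV) and 3.74 ± 3.95 CPM (S), with no overlap between LE and GE or between GE and BV. ST6GAL1 was lowest in LE, with 18.1 ± 11.2 CPM (LE), 117 ± 87.0 CPM (GE), 69.0 ± 17.2 CPM (BV) and 33.0 ± 13.7 CPM (S), and the range of GE covered those of BV and part of S. Between the epithelia together and BV with S, 3 of 7 genes were called, MUC1, MUC4 and GALNT3, all higher in epithelium. Of all genes, whatever their counts, 64.2% were called. MUC16 was left out of the 7 only because it had 0 counts in cyclic BV. Its estimate, higher in epithelium by 5.36 (standard error 0.71, adjusted p = 3.91e-07, joint quasi-likelihood fit), includes that group without counts and is not read as a call. The mean of MUC16 was 98.6 ± 130 CPM (LE), 82.1 ± 121 CPM (GE), 5.80 ± 11.7 CPM (BV) and 5.92 ± 8.44 CPM (S). The differences were 4.33 (standard error 0.42, adjusted p = 6.75e-10) for MUC1, 2.99 (standard error 0.62, adjusted p = 1.03e-04) for MUC4 and 3.87 (standard error 0.28, adjusted p = 2.58e-12) for GALNT3, and those of GALNT15 and ST6GAL1 were -0.29 (standard error 0.28, adjusted p = 0.355) and -0.12 (standard error 0.21, adjusted p = 0.623).

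Levels of different genes were compared per kilobase of exon. In pregnant LE the order was MUC1 with a mean of 167 CPM per kilobase, MUC4 with 77.5, GALNT3 with 20.6, GALNT15 with 14.7, MUC16 with 9.46 and ST6GAL1 with 4.56. MUC1 stood above MUC4 and MUC4 above GALNT3 in all 4 libraries, while GALNT3 overlapped with GALNT15, GALNT15 with MUC16 and MUC16 with ST6GAL1. In cyclic LE, MUC1 (52.8 CPM per kilobase), GALNT3 (19.1) and MUC4 (8.80) led, and GALNT15 had 0.436 CPM per kilobase. Pregnant GE was led by MUC1 (87.2 CPM per kilobase) and ST6GAL1 (28.6), and cyclic GE by MUC1 (38.0), ST6GAL1 (13.6) and MUC6 (4.15). Reads in the tandem repeats of mucins can map to several places, so their per-length levels are uncertain.

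**Figure D4:**
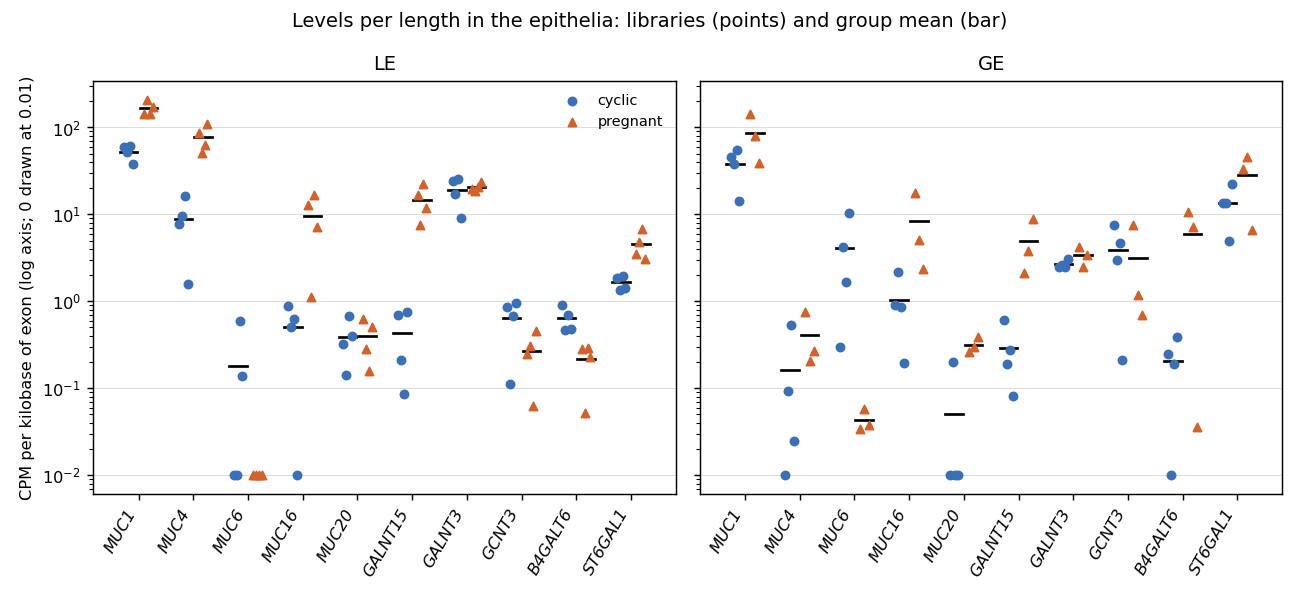
CPM per kilobase of exon of each gene (y axis, log scale, 0 drawn at 0.01) in LE and GE, with 1 point per library and a bar at the group mean. MUC1 and MUC4 lead in pregnant LE with means of 167 and 77.5, and MUC6 has 4.15 in cyclic and 0.0434 in pregnant GE, a difference not called by the quasi-likelihood test.

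The genes most like each one over the 31 libraries, by Pearson correlation of log2 CPM, are given as a description, since libraries of a compartment or gilt share their source and depth. For MUC1 they were CDH1 (r = 0.972), MYO5C (r = 0.971) and MYH14 (r = 0.966), of which CDH1 is the epithelial cadherin and 1 of the markers above. For MUC4 they were CYP7A1 (r = 0.968), FXYD3 (r = 0.955) and TRPV6 (r = 0.938), and TRPV6 is a calcium channel. MUC16 was nearest to GRB7 (r = 0.926), LOC102167930 (r = 0.922) and LOC110256041 (r = 0.915), where LOC102167930 is the mucin-16-like neighbour. GALNT15 was nearest to EIF4E3 (r = 0.855), IGFBP2 (r = 0.818) and ARRB1 (r = 0.810). MUC6 was nearest to DISP3 (r = 0.9495), IL17REL (r = 0.916) and CREB3L4 (r = 0.870) and GALNT3 to SPAG1 (r = 0.951) and ZNRF2 (r = 0.937). The highest r were lower for ST6GAL1, with BTG1 (r = 0.841), ST6GALNAC2 (r = 0.838) and PAIP2B (r = 0.815), GCNT3, with LAMA3 (r = 0.755), ZDHHC9 (r = 0.746) and ARHGAP22 (r = 0.742), and B4GALT6, with GPSM2 (r = 0.688), LOC110260996 (r = 0.624) and TRIM63 (r = 0.599).

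Of the 114 other mucin and O-glycan genes that were matched, in 10 lists of mucins, transferases, sugar supply, shedding enzymes and lectins, LE held 75 detectable ones, GE and BV 70 each and S 76. The quasi-likelihood test called 3 in LE, all higher in pregnant gilts, beside the 3.32% of all genes. In GE, BV and S it called 0, where 15, 19 and 9 had an unadjusted p under 0.05 (beside 23.0%, 28.5% and 14.5% of all genes). The robust GLM called 7, 8 and 3 there, beside 6.66%, 11.0% and 3.16% of all genes. DESeq2 called 6, 6 and 3, beside 6.64%, 8.50% and 2.60%. The median log2 FC of these genes lay between -0.043 and -0.037 in the 4 compartments.

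B3GNT2, which elongates poly-N-acetyllactosamine chains, stood at 38.5, 38.9, 45.4 and 34.4 CPM for cyclic LE, against 64.0, 84.3, 85.8 and 69.1 CPM for pregnant LE. The groups did not overlap (log2 FC 0.96, standard error 0.15, adjusted p = 0.00618, quasi-likelihood test), and the call was lost without any 1 library (adjusted p from 0.0113 to 0.0233). LGALS8, a galactoside-binding lectin, stood at 39.3, 38.9, 44.8 and 37.3 CPM for cyclic LE, against 116, 90.7, 79.7 and 90.3 CPM for pregnant LE. Its groups did not overlap either (log2 FC 1.25, standard error 0.17, adjusted p = 0.00314, quasi-likelihood test), and the call was lost without cyclic gilt C40 or C42 or pregnant gilt P39 or P43 (adjusted p from 0.0114 to 0.0145). By list, LE had 1 called of 7 core and branch enzymes and 2 of 5 lectins. None of 6 other mucins, 11 GalNAc transferases, 8 galactosyltransferases, 10 sialyltransferases, 6 fucosyltransferases, 1 sulfotransferase, 15 sugar supply genes and 6 sheddases and sialidases was called in LE by the quasi-likelihood test, while 3, 6, 1, 2, 3, 0, 3 and 1 of them had an unadjusted p under 0.05, beside 26.9% of all genes.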

How the data were processed

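RNA-seq libraries of LE, GE, BV and S from 8 gilts were analysed (31 libraries). As the methods of the study describe, the authors used Trim Galore for trimming, Hisat2 for mapping against the Sscrofa11.1 genome of NCBI, nudup against PCR duplicates and QuasR for counts per gene (versions and strand setting not given in the sources used here). The deposited values are raw counts, whole numbers per gene and library, and a filtered table per compartment holds the genes above a CPM minimum that is not stated. No column of per-sample values was left unmapped.

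Genes were matched by symbol to the RefSeq annotation of Sscrofa11.1 (MUC16 by product name). The filtered counts were tested per compartment with edgeR 4.0.16 in R 4.3.3 (TMM, glmQLFit and glmQLFTest, Benjamini-Hochberg adjustment over all genes of the compartment), which replaced the study's robust GLM as the main test. The called limit followed the study's rule, 1% after adjustment for LE and the p reached there for the others. edgeR's robust GLM likelihood ratio test and DESeq2 1.42.0, each with its own limit from LE, RLE normalisation, other filters and thresholds, a gilt block and single libraries left out were the alternatives. The scripts were tested on simulated data with 200 changed genes. A floor is 3 counts over a group, about the upper 95% limit of a count of 0, and intervals cover counting error only.

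The gilt numbers pair the compartments because they name the same animal, and the median correlation of deviations from group means was 0.165 between libraries of the same gilt and -0.0478 between those of different gilts. Replicates of a group are separate gilts. The genes and lists were chosen with earlier results of these data known. Named are all 10 genes, called genes of the other lists (up to the 4 with the largest log2 FC per list and compartment) and the 3 genes most like each one. Some genes that this rule names are not reported here.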

Additional observations from a re-analysis of the deposited data

Results flagged for a closer look

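Of 65 groups of 4 libraries with more than 3 counts, 9 held a library far above the other 3 by Dixon's test at the 95% level. Its chance rate of about 1 in 20 groups is for normal values. It does not hold for low counts with zeros, so the 9 cannot be set against it. All 9 lay in BV or S, where the counts were low. MUC1 in BV had 7.49 CPM in cyclic gilt C40, with the next library at 0.425 CPM. The same compartment held MUC4 at 2.12 CPM in cyclic gilt C78, the others having none, and at 8.81 CPM in pregnant gilt P41, next to 0.846 CPM. MUC4 also stood out in S of cyclic gilt C78, at 5.14 CPM. Cyclic gilt C128 was the library apart for MUC6, with 3.03 CPM in BV and 6.57 CPM in S. MUC16 in BV reached 34.1 CPM in pregnant gilt P39, next to 6.34 CPM. MUC20 in BV had 2.23 CPM in pregnant gilt P43 and no count in the other 3. GALNT15 in S had 7.01 CPM in cyclic gilt C40, next to 2.90 CPM. The cause of these values was not tested.

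The effect of pregnancy differed between compartments by the joint quasi-likelihood test for GALNT15 (adjusted p = 0.00307, and 0.00345 with the gilt as a block), with log2 FC of 5.07 and 4.08 in the epithelia and of 0.74 and 1.78 in BV and S. For B4GALT6 the adjusted p of this test was 0.00750 over all compartments and 0.00856 between LE and GE. With the gilt as a block, which pairs the compartments of an animal, both calls were lost (adjusted p = 0.0128 and 0.0167). B4GALT6 was lower in all 4 pregnant LE libraries and higher in 2 of 3 pregnant GE libraries. It was detectable in GE alone, so its calls are not independent of the filter.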

How the results depend on the processing

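In LE, GE, BV and S, the main test called 2, 1, 0 and 0 of the 10 genes, the robust GLM 5, 4, 1 and 3, DESeq2 5, 3, 1 and 1 and a false discovery rate of 5% within the compartment 5, 1, 1 and 0. At 1% within the compartment, 0 were called in GE. Of the 114 other genes of the lists, the main test called 3, 0, 0 and 0, the robust GLM 15, 7, 8 and 3, DESeq2 14, 6, 6 and 3 and the 5% rate 14, 0, 6 and 0, and 1 was called in GE without a filter. Of all genes, the main test called 398, 89, 206 and 35, the robust GLM 1411, 793, 1216 and 377, DESeq2 1342, 791, 943 and 310, the 5% rate 1288, 221, 958 and 4 and the 1% rate 0, 0 and 0 in GE, BV and S. RLE normalisation and edgeR's filterByExpr moved none of these counts by over 1.5 times. With 1 library left out, the calls among the 10 genes were 1 to 3, 0 to 2, 0 to 1 and 0 to 1, those among the other genes of the lists 0 to 5, 0 to 1, 0 to 2 and 0 to 1, and those among all genes 101 to 439, 38 to 110, 77 to 231 and 12 to 52.

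In the joint fit, the gilt block changed the number with a compartment-dependent effect from 2 to 1 and with an effect differing between LE and GE from 1 to 0, and left the 4 and 3 differences in level. Over the 9727 genes detectable in all compartments, which hold only MUC1, GALNT15 and ST6GAL1 of the set, the 4 numbers were 1, 0, 1 and 1. With 1 gilt left out they were 0 to 2, 0 to 1, 4 to 5 and 3 each time. Without gilt P139 alone did the first 2 keep their main values of 2 and 1. No log2 FC of the 10 genes that was called changed its sign under any setting. MUC1 per summed epithelial markers was added after seeing the data. The ratio of its means, pregnant to cyclic, was 4.05 in LE in place of 3.16. With 3 or 4 gilts per group and few counts in BV and S, a gene that missed the threshold is not shown to be unchanged. The causes of these changes were not tested.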

Other observations

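In LE, the robust GLM and DESeq2 both called 8 of the 75 list genes higher and 5 lower, beside 685 and 454 of all 12002 genes. In GE both called 2 and 3 of 70, beside 366 and 234 of 11905 genes. For BV the numbers were 4 and 2 of 70, beside 492 and 337 of 11096 genes. Further genes of the lists were called by both the robust GLM and DESeq2 but not by the quasi-likelihood test, and were named after their values were seen. In LE they included, besides the mucin-16-like LOC102167930 described above, the mucin MUC13 (log2 FC 2.999, standard error 0.76), the initiating enzymes GALNT2 (log2 FC 0.80, standard error 0.18) and GALNT12 (log2 FC 2.33, standard error 0.51) and the fucosyltransferase FUT4 (log2 FC 1.96, standard error 0.42), all higher in pregnant gilts. Lower in pregnant LE were the initiating enzyme GALNT4 (log2 FC -1.17, standard error 0.27), the branching enzyme GCNT1 (log2 FC -1.41, standard error 0.35), the UDP-GlcNAc carrier SLC35A3 (log2 FC -0.91, standard error 0.20) and the galectins LGALS3 (log2 FC -1.59, standard error 0.40) and LGALS9 (log2 FC -1.43, standard error 0.31). GCNT1 had a mean of 308 ± 132 CPM for cyclic against 114 ± 48.9 CPM for pregnant LE, without overlap. MUC13 had a mean of 1.41 ± 1.80 CPM for cyclic against 11.8 ± 7.41 CPM for pregnant LE, also without overlap. The gel-forming mucin MUC5AC, called by the robust GLM alone, had a mean of 88.3 ± 82.5 CPM for cyclic against 8.80 ± 6.17 CPM for pregnant LE, with overlapping groups (log2 FC -3.29, standard error 1.21, adjusted p = 0.113, quasi-likelihood test).

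In GE, the galactosyltransferase B3GALT5 had a mean of 124 ± 87.3 CPM for cyclic against 16.02 ± 7.88 CPM for pregnant GE (log2 FC -2.94, standard error 0.59, adjusted p = 0.0521, quasi-likelihood test). PGM3 (log2 FC -1.38, standard error 0.29), of UDP-GlcNAc synthesis, and LGALS1 (log2 FC -1.95, standard error 0.44) were lower. The mucin-16-like LOC102167930 (log2 FC 2.80, standard error 0.84) was called higher in pregnant GE by both the robust GLM and DESeq2. In BV, GALNT5 (log2 FC -2.02, standard error 0.51) and GFPT1 (log2 FC -0.89, standard error 0.21), the entry enzyme of hexosamine synthesis, were lower. GALNTL5 (log2 FC 1.64, standard error 0.40) and the sialyltransferases ST6GALNAC4 (log2 FC 0.92, standard error 0.24) and ST6GALNAC6 (log2 FC 0.68, standard error 0.16) were higher there.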
